A study of Mus musculus with 6 samples.

Results

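The MHC class II genes examined here were 7 genes of antigen presentation, H2-Aa, H2-Ab1, H2-Eb1, Cd74, Ciita, H2-DMa and H2-DMb1, taken with every probe set that names them. They were read among 19935 genes that have a probe set of their own symbol on the array. Each had 1 probe set, and 6 of the 7 had one that names no other gene. H2-DMb1 was measured only by a probe set that also names its neighbour H2-DMb2, so its values belong to the pair and cannot be assigned to either gene.

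The study measured total RNA of cells labelled HSC, hematopoietic stem cells, which renew themselves and give rise to every type of blood cell, on 6 one-colour arrays after cDNA amplification. Of these, 3 arrays came from Selp-/- mice, which lack P-selectin, an adhesion receptor of platelets and endothelium, and 3 from WT mice. The stated strain of both was C57BL/6, and the arrays of each genotype are numbered 1, 2 and 3. The labels used here give no age, no sort gate and no treatment. They do not tie the 3 arrays of a genotype to different animals, and the p-values rest on a spread between arrays that may be technical. No probe set is named Selp in the annotation used here, so the deletion itself was not checked. The arrays numbered 3 stand apart from the other arrays of both genotypes, with 9 of 11 stem cell markers lower in them, which goes against their HSC label, and the genotype comparison is given with and without them.

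Class II molecules are pairs of an alpha and a beta chain that carry peptides from endosomes to the cell surface, where CD4+ T cells read them. In mice of the H2-b haplotype the molecule at the surface is I-A, made of the H2-Aa and H2-Ab1 chains. The invariant chain Cd74 holds the groove closed on the way to the endosome, proteases cut it down, and H2-DM, made of H2-DMa and an H2-DMb chain, exchanges the last fragment for peptide. Transcription of these genes depends on the coactivator Ciita, which binds no DNA itself and is brought to their promoters by RFX, CREB and NF-Y factors seated on the X and Y boxes. B cells, dendritic cells and activated macrophages are the main cells that carry class II in the blood system.

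The promoters are shown because Ciita acts on these genes through 2 elements a short stretch apart. RefSeq promoter sequences on GRCm38.p6, matched by symbol, were read for 4 of the 7 genes, H2-Aa, H2-Eb1, H2-DMa and H2-DMb1. H2-Ab1 and Ciita had no matching sequence. Cd74 was left out by choice, not for want of a match, so nothing is said of its promoter. For H2-Aa, H2-Eb1 and H2-DMb1, the 150 bases before the start that the promoter table gives are printed 5′ to 3′ on the gene's own strand, with H2-DMb2 and H2-Ob, the beta chain of the exchange inhibitor H2-O, for comparison. The start given for H2-DMb2 lies inside the span RefSeq gives that gene, so its window does not lie before the whole gene. H2-DMa, whose windows held no match, is not printed. Capitals mark an X box (AAC, any 2 bases, ATGATG), a Y box (TGATTGG, the NF-Y site, a reversed CCAAT box) or the CREB site TGACGTCA. The windows were H2-Aa at chr17:34287824-34287973 on the minus strand, and on the plus strand H2-Eb1 at chr17:34305717-34305866, H2-DMb1 at chr17:34153041-34153190, H2-DMb2 at chr17:34145099-34145248 and H2-Ob at chr17:34238755-34238904.
H2-Aa: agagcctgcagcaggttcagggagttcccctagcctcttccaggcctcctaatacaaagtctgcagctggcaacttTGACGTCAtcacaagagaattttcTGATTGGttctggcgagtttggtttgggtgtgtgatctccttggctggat
H2-Eb1: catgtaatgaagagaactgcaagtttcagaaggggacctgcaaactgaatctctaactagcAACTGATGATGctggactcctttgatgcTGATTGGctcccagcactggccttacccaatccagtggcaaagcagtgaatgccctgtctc
H2-DMb1: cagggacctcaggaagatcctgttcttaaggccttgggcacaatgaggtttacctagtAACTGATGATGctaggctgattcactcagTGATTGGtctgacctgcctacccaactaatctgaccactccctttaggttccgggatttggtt
H2-DMb2: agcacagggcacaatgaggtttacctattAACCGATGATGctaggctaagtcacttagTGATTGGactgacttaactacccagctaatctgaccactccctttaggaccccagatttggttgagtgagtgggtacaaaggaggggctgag
H2-Ob: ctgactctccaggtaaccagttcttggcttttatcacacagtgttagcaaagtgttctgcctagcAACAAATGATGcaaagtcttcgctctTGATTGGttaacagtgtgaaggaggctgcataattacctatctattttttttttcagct

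H2-Eb1 held the X box with its first base at -89 and the Y box at -61, with 17 bases between them. H2-DMb1 held them at -92 and -63 and H2-DMb2 at -121 and -92, each with 18 bases between, and H2-Ob at -85 and -59 with 15. H2-Aa matched the Y box at -50 and the CREB site at -74 but not the X box as spelled. Both windows of H2-DMa held none of these letters. Searched on both strands over the 250 bases before the start, the X box was found in 39 of 32851 promoter windows (0.119%), the Y box in 2375 (7.23%) and the CREB site in 508 (1.55%). No 2 matches overlap in the windows printed. Only 9 windows (0.0274%) held both X and Y boxes, among them those of H2-Eb1, H2-DMb1, H2-DMb2 and H2-Ob. The spellings were chosen with these promoters in view, and a match is a description of the letters only.

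The chains of the surface molecules differed more between arrays of 1 genotype than between the genotypes. On the log2 scale after normalization, H2-Aa stood at 10.31, 11.82 and 11.22 in Selp-/- arrays 1, 2 and 3, against 10.55, 11.01 and 12.17 in WT arrays 1, 2 and 3. The deposited intensities of the same probe set were 1600, 3239 and 2794 in Selp-/- arrays and 1546, 1707 and 5283 in WT arrays. Array 1 was the lowest of both genotypes, the highest was array 2 in Selp-/- and array 3 in WT, and the genotypes overlapped. The mean was 11.12 ± 0.76 in Selp-/- and 11.24 ± 0.83 in WT (SD, n = 3 each), a difference of -0.13 (SE 0.51, 95% interval -1.34 to 1.08, limma adjusted p = 1).

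H2-Ab1, the partner chain, stood at 11.04, 12.30 and 11.35 in Selp-/- arrays, against 11.22, 11.65 and 11.99 in WT arrays. Array 1 was again the lowest of both genotypes, and Selp-/- array 2 was here above every WT array. The difference was -0.06 (SE 0.35, 95% interval -0.89 to 0.78).
H2-Eb1, the beta chain of I-E, stood at 10.32, 11.46 and 11.11 in Selp-/- arrays, against 10.50, 10.76 and 11.91 in WT arrays, again with Selp-/- array 2 and WT array 3 on top. Its difference was -0.09 (SE 0.43, 95% interval -1.12 to 0.94). The I-E alpha chain H2-Ea, annotated in RefSeq as a transcribed pseudogene, lay between 7.52 and 7.90 on Selp-/- arrays and between 7.55 and 7.75 on WT arrays, under the filter on dim probe sets, and was not tested.

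Cd74, the invariant chain, stood at 12.56, 12.74 and 12.26 in Selp-/- arrays, against 11.99, 12.62 and 13.09 in WT arrays. The numbers did not run the same way in both genotypes, since array 3 was the lowest Selp-/- array and the highest WT array. Its mean was 12.52 ± 0.24 in Selp-/- and 12.57 ± 0.55 in WT (SD, n = 3 each), a difference of -0.04 (SE 0.28, 95% interval -0.71 to 0.62).
Ciita stood at 9.11, 9.48 and 9.30 in Selp-/- arrays, against 9.13, 9.06 and 9.84 in WT arrays. WT array 3 was again the highest and the other arrays lay close together, with a difference of -0.05 (SE 0.22) between the genotypes.

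The peptide exchange factor H2-DM had an alpha chain whose arrays ranked unlike those of the other members. H2-DMa stood at 10.93, 11.69 and 10.52 in Selp-/- arrays, against 11.50, 11.37 and 10.91 in WT arrays. Array 3 was the lowest of each genotype, the opposite of WT H2-Aa, and the difference was -0.21 (SE 0.32). The shared probe set of H2-DMb2 and H2-DMb1 stood at 9.49, 9.99 and 9.88 in Selp-/- arrays, against 9.73, 9.92 and 10.38 in WT arrays. It overlapped between the genotypes, with a difference of -0.23 (SE 0.21).

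**Figure D1:**
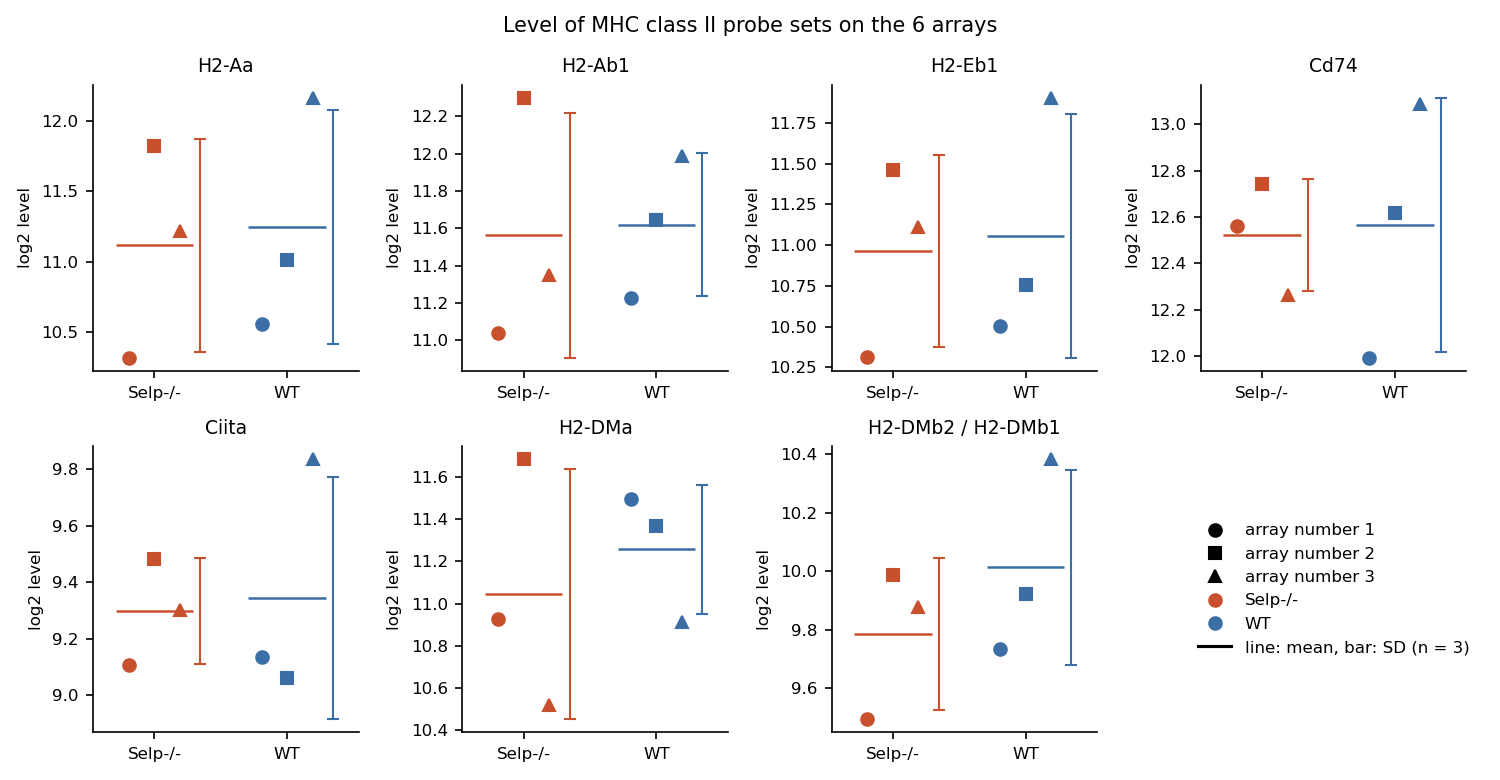
Normalized log2 level of each class II probe set (y axis, 1 panel a probe set, each with its own scale not starting at 0) on the 3 Selp-/- arrays and the 3 WT arrays. Points are arrays, their shape gives the array number, lines are group means and bars are the SD (n = 3 each), and WT array 3 is the highest point in 5 of the 7 panels, all of which show genotypes that overlap.

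None of the 7 probe sets passed the genotype test (limma, Benjamini-Hochberg over all 17289 probe sets that passed the filter on low levels, adjusted p under 0.05), and their adjusted p-values were all close to 1. This matched the whole array, where 0% of tested probe sets passed and 0.706% had an unadjusted p under 0.05. With the array number as a replicate block, 0% passed and 3.64% had an unadjusted p under 0.05. None of the 7 class II probe sets was among either share. Of the other class II chains tested, H2-Ob was among the 3.64% (-0.38, limma unadjusted p = 0.0330), and H2-Oa and H2-Eb2 were not. The arrays of the genotypes did not overlap for 4.21% of tested probe sets and for 0 of the 7 class II probe sets. All 7 differences lay below 0, with a median of -0.092 against 0.0054 over all tested probe sets, but each interval included 0. The interval of H2-Aa reached 1.08 on the log2 scale, so 3 arrays a genotype could not set a difference of that size apart from none. The differences of 5 of the 7 lay above 0 when the arrays numbered 3 were left out, for example 0.29 for H2-Aa and 0.36 for Cd74. Leaving out WT array 3 alone turned the sign for the same 5, H2-Aa (0.33), H2-Ab1 (0.13), H2-Eb1 (0.33), Cd74 (0.22) and Ciita (0.20). The sign also turned without Selp-/- array 1 alone for H2-Aa (0.27), H2-Ab1 (0.21), H2-Eb1 (0.23) and Ciita (0.051), so it did not rest on the arrays numbered 3 only.

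**Figure D2:**
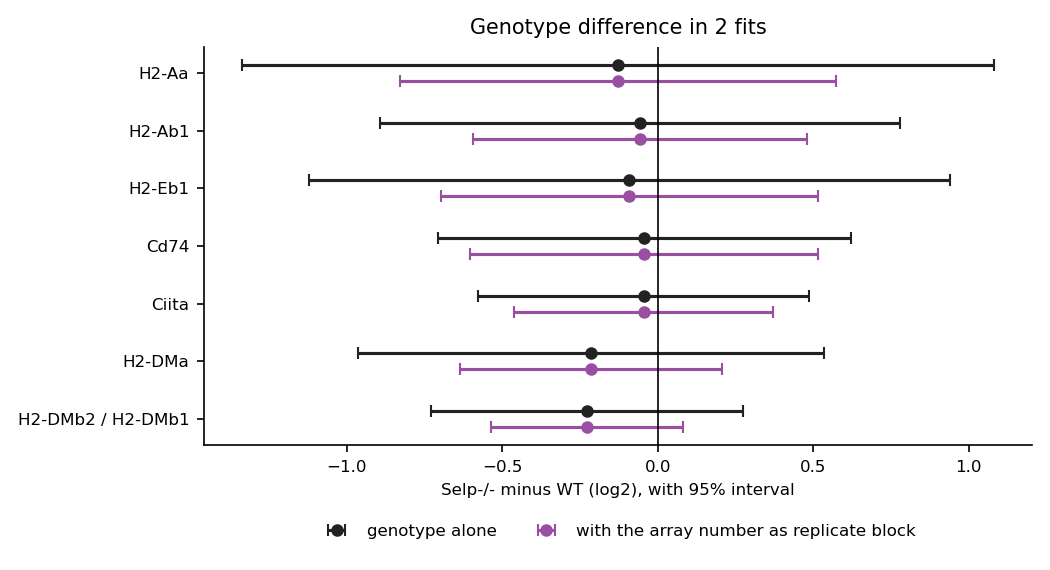
Difference in log2 level, Selp-/- minus WT (x axis), for each class II probe set, with its 95% interval from the fit without and with the array number as a block. Every interval spans 0, and that of each probe set is narrower with the block.

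Set side by side by array number, the genotypes differed in opposite directions. In the arrays numbered 1, Selp-/- was higher than WT for 1 of 7 probe sets (Cd74, by 0.57), with a median difference of -0.19. In number 2, Selp-/- was higher for 7 of 7, with a median of 0.42 and the largest difference, 0.81, for H2-Aa. In number 3, Selp-/- was higher for 0 of 7, with a median of -0.64 and a lowest value of -0.96 for H2-Aa. Over all tested probe sets the 3 medians were 0.0029, 0.010 and 0.00083. The order below, above and below 0 held for 6 of the 7, against 15.6% of all tested probe sets, and Cd74 was the exception. Selp-/- array 2 and WT array 3 were the 2 highest arrays for 6 of the 7, against 6.21% of all, and H2-DMa was the exception. These patterns were picked after the values were seen, the 7 genes are measured on the same 6 arrays, and each number holds 1 array of each genotype, so they carry no test.

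**Figure D3:**
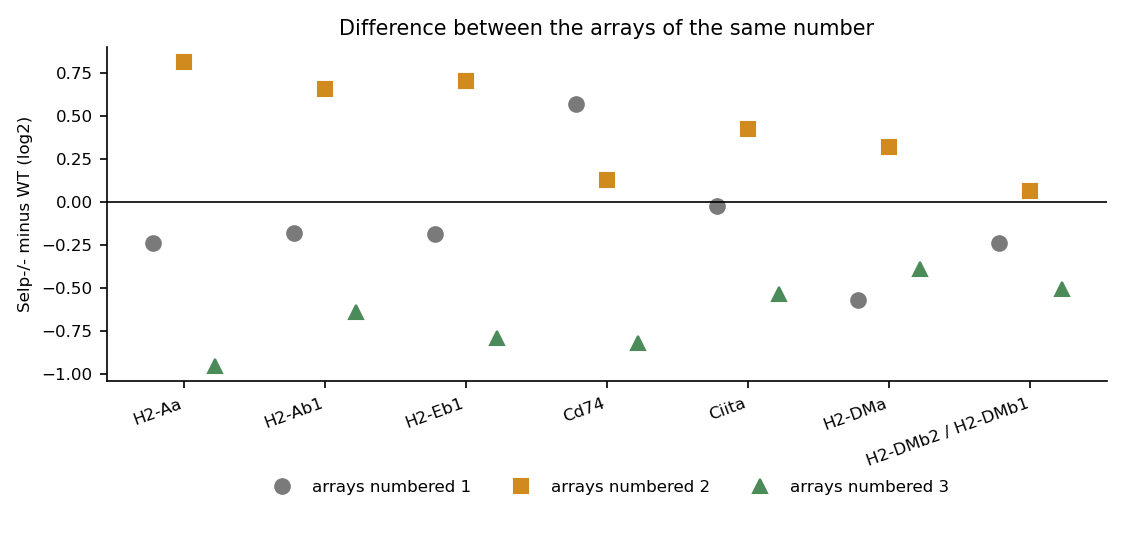
Difference in log2 level, Selp-/- minus WT (y axis), between the arrays of the same number for each class II probe set (x axis), with a symbol for each array number. All 7 points of number 2 lie above 0 and all 7 of number 3 below 0.

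Levels differed by array number for 12.8% of all tested probe sets (F test with genotype in the model, limma adjusted p under 0.05), but 0 of the 7 class II probe sets, whose adjusted p-values ran between 0.0987 for H2-DMa and 0.506 for Cd74. They were not flat, as the range over the 6 arrays was above 1 on the log2 scale for 5 of the 7, against 11.3% of all. H2-Aa was 1.26 higher in number 3 than in number 1 (SE 0.36, limma adjusted p = 0.0651), and H2-Eb1 was 1.10 higher (SE 0.31, adjusted p = 0.0640). Neither passed, while 13.1% of all probe sets passed this contrast (6.08% higher and 7% lower in number 3). Cd74 and Ciita differed by 0.40 and 0.45 in the same contrast, with adjusted p-values of 0.401 and 0.216.

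The only class II call was H2-DMa, lower in number 3 than in number 2 by -0.81 (SE 0.22, limma adjusted p = 0.0458), a contrast passed by 17.3% of all probe sets (7.8% higher and 9.48% lower in number 3). The H2-DMa call did not hold without Selp-/- array 2 (-0.42), without Selp-/- array 3 (-0.67) or without WT array 3 (-0.94). The difference stood at -1.23 without WT array 2. Between numbers 2 and 1, 0.0521% of all probe sets passed and no class II gene did, with the largest class II difference being 0.98 for H2-Aa (SE 0.36, adjusted p = 0.624). In the F test, 4 class II probe sets passed without Selp-/- array 3 (H2-Aa at an adjusted p of 0.0103, H2-Eb1 at 0.0159, Cd74 at 0.0257, H2-Ab1 at 0.0420), and 4 without WT array 2 (H2-Aa at 0.0355, H2-DMa at 0.0364, H2-Eb1 at 0.0433, H2-Ab1 at 0.0455). Without Selp-/- array 2, H2-Aa (0.0390) and H2-Eb1 (0.0402) passed, and without WT array 1 H2-DMa did (0.0474).

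The other class II chains did not move as one with the members. H2-Ob stood at 10.72, 11.02 and 9.38 in Selp-/- arrays, against 11.01, 11.13 and 10.12 in WT arrays. It fell in number 3 against number 1 by 1.12 on the log2 scale (SE 0.17, limma adjusted p = 0.0103) and against number 2 by 1.33 (SE 0.17, adjusted p = 0.00438), and array 3 was the lowest of both genotypes. H2-Oa, the alpha chain of the same inhibitor, stood at 9.42, 9.72 and 9.61 in Selp-/- arrays, against 9.73, 9.49 and 10.57 in WT arrays, and passed no contrast. H2-Eb2, a further beta chain, stood at 8.74, 8.50 and 8.85 in Selp-/- arrays, against 8.61, 8.68 and 9.62 in WT arrays, and passed none either.

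Of the factors that act at class II promoters or at that of Ciita, 3 of 11 passed the F test, against 12.8% of all tested probe sets. Rfx5, the DNA-binding subunit of RFX, fell in number 3 against number 1 by 0.46 (SE 0.12, limma adjusted p = 0.0462) and against number 2 by 0.77 (SE 0.12, adjusted p = 0.00699). Nfya, a subunit of NF-Y, fell by 0.63 (adjusted p = 0.0304) and by 0.82 (adjusted p = 0.0106), while Spi1, the myeloid factor PU.1, rose by 0.58 (adjusted p = 0.0430) and by 0.61 (adjusted p = 0.0313). Irf8 passed neither contrast (-0.09 and -0.42). The median of the list was -0.30 in the first contrast and -0.33 in the second, against -0.013 and -0.017 over all tested probe sets and 0.52 and 0.18 over the class II members.

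The list of class II protein processing and turnover holds proteases, the reductase Ifi30, a ubiquitin ligase and tetraspanins. Its genes were higher in the arrays numbered 3, with 9 of 9 tested genes called against number 1 (median 1.90) and 8 of 9 against number 2 (median 1.60), where 6.08% and 7.8% of all tested probe sets were called higher. Ifi30, also called GILT, which opens disulfide bonds of antigens, stood at 10.43, 10.45 and 12.18 in Selp-/- arrays and at 10.18, 10.15 and 12.26 in WT arrays. Lgmn, asparagine endopeptidase, rose in number 3 by 2.48 against number 1 (SE 0.26, limma adjusted p = 0.00242), Ctsd, cathepsin D, by 1.90 (SE 0.14, adjusted p = 0.00074) and the tetraspanin Cd63 by 2.00 (SE 0.12, adjusted p = 0.00046). Several of these proteases serve lysosomes of many cells. Marchf1, also on this list, lay under the filter and was not tested.
Of the costimulation and coinhibition genes, 5 of 6 tested were higher in number 3 than in number 1 (6.08% of all) and 4 of 6 were higher than in number 2 (7.8% of all). Cd83, which keeps class II at the surface, rose by 1.97 against number 1 (SE 0.16, limma adjusted p = 0.000932) and Cd274, the PD-1 ligand PD-L1, by 1.49 (SE 0.13, adjusted p = 0.00114). Pdcd1lg2, the other PD-1 ligand, and Icosl, the ICOS ligand, rose by 1.47 (adjusted p = 0.0263) and 0.87 (adjusted p = 0.0473). Cd80, Cd86, Tnfsf4 and Tnfsf9 lay under the filter. Cd83 (means of 8.47 and 8.77 in numbers 1 and 2) and Pdcd1lg2 (8.48 and 8.45) were under its level of 8.79 there. Both were tested only through number 3, so the counts of higher genes in this list were partly set by the filter.

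Of the class I presentation genes, 2 of 12 were higher against number 1 and 3 of 12 against number 2, where 6.08% and 7.8% of all tested probe sets were higher. None of the 12 was called lower. Tapbp, the peptide-loading factor tapasin, rose by 0.83 against number 1 (SE 0.13, limma adjusted p = 0.00943) and Pdia3, a chaperone of the loading complex, by 0.52 (adjusted p = 0.0323). Calr, a chaperone of the same complex, passed only against number 2 (0.54, adjusted p = 0.0284), and Erap1, a peptide trimmer, passed neither (-0.45 and -0.43).

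**Figure D4:**
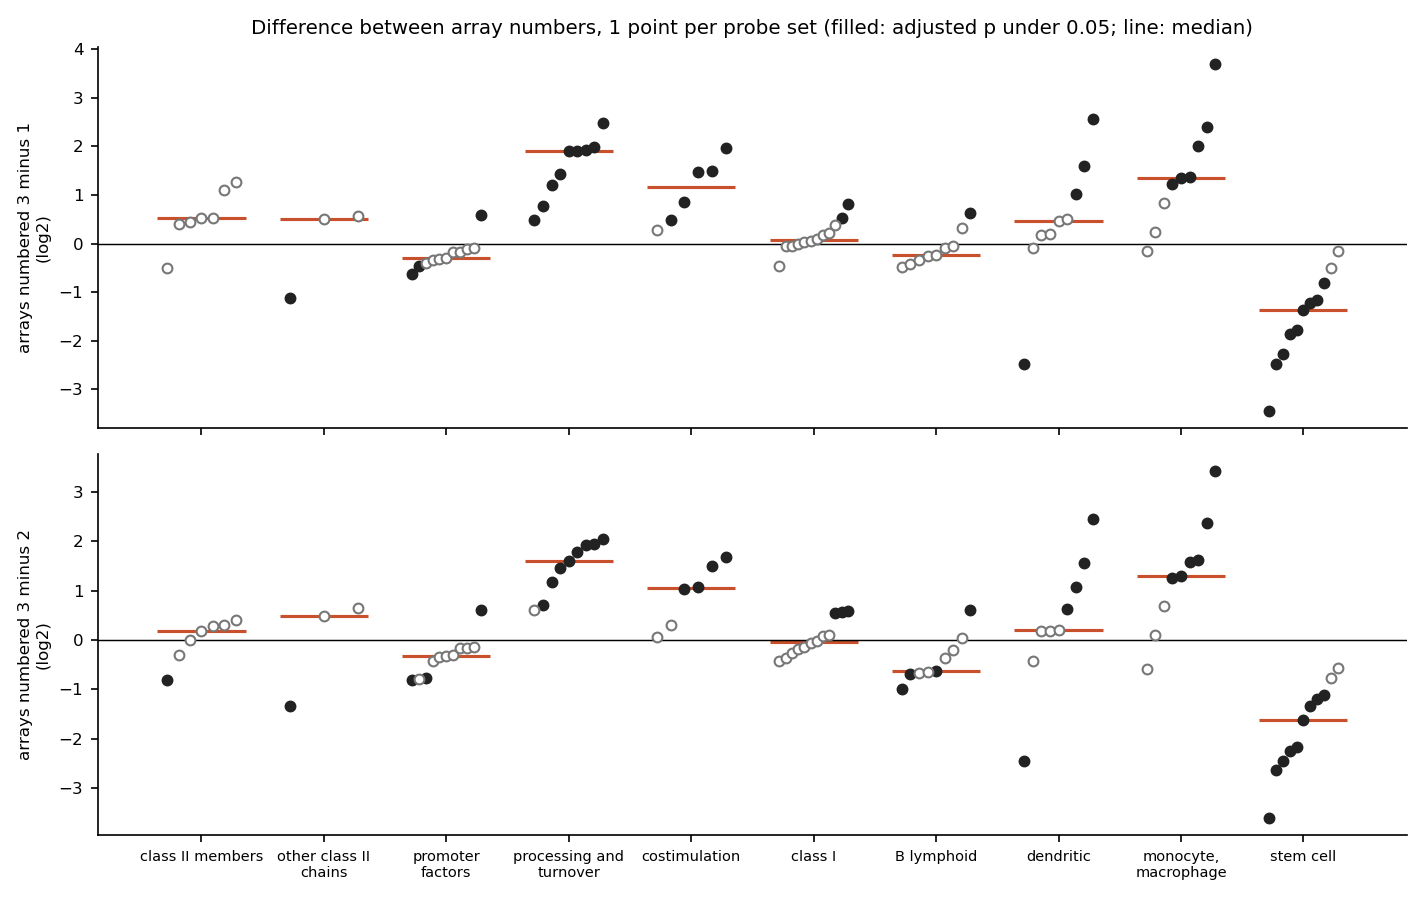
Difference in log2 level between arrays numbered 3 and 1 (upper panel) and 3 and 2 (lower panel) for the tested probe sets of 10 gene lists (x axis), filled where the limma adjusted p was under 0.05, with the list median as a line. In the upper panel the class II members lie between -0.50 and 1.26 with no call, and the 9 processing genes all lie above 0 and are all called.

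Markers of other cells differed by array number, in contrasts where 6.08% of all tested probe sets were higher and 7% lower against number 1, and 7.8% higher and 9.48% lower against number 2. In bulk RNA fewer cells of a type and less RNA per cell cannot be told apart. Of the monocyte and macrophage markers, 6 of 9 tested were higher in number 3 against both other numbers, among them Adgre1 (3.69 above number 1), Cd68 (2.40), Ccr2 (2.00) and Itgam (1.22), and the summed level of the list was between 10228 and 38268 on Selp-/- arrays and between 10631 and 24303 on WT arrays. Cd14 and Ms4a7 lay under the filter. Adgre1 (means of 8.03 and 8.29 in numbers 1 and 2) was under the filter level of 8.79 there and was tested only through number 3. The same held for the dendritic marker Itgax (8.72 and 8.68) and the B lymphoid marker Cd22 (8.75 and 8.78). Ccr2 was under that level in number 1 (8.50) and little above it in number 2 (8.92), against 10.50 in number 3. Its place among the tested genes also leaned on number 3. Counts of genes higher in number 3 carry this selection. Of the dendritic markers, 3 of 9 tested were higher and 1 lower against number 1, with Ccr7 (2.57), Fscn1 (1.59) and Itgax (1.03) higher and Flt3 (-2.48) lower, and with sums between 11123 and 14597 on Selp-/- arrays and between 11999 and 15736 on WT arrays. The dendritic markers Xcr1, Clec9a and Cd209a lay under the filter. Of the B lymphoid markers, 1 of 9 tested was higher against number 1 (Cd22, 0.63). Against number 2 it was higher (0.60) and 3 were lower (Igll1 by -0.99, Ebf1 by -0.69 and Cd79b by -0.63), with sums between 6614 and 8813 on Selp-/- arrays and between 7512 and 10598 on WT arrays. Ms4a1, Rag1 and Fcer2a lay under the filter. Of the stem cell markers, 9 of 11, among them Hlf (-3.45 against number 1), Angpt1 (-2.28), Flt3 and Mecom (-1.86), were lower in number 3 against both other numbers. No gene of any list was called for genotype in either fit.

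The mean deviation of the 7 members from their own means was -0.42, 0.40 and -0.15 on Selp-/- arrays 1, 2 and 3, against -0.29, -0.04 and 0.51 on WT arrays. That of the monocyte and macrophage markers was -0.53, -0.41 and 1.15 on Selp-/- arrays, against -0.50, -0.36 and 0.65 on WT arrays. The B lymphoid markers deviated by -0.05, 0.07 and -0.19 on Selp-/- arrays, against -0.11, 0.30 and -0.02 on WT arrays. The dendritic markers deviated by -0.13, 0.07 and 0.11 on Selp-/- arrays, against -0.13, -0.02 and 0.09 on WT arrays. The monocyte list was low on Selp-/- array 2, where the class II members were high. The dendritic list, like the class II members, was lowest on the arrays numbered 1 and above its mean on Selp-/- array 2 and WT array 3. This order was not particular to it. The T and NK markers (0.03 on Selp-/- array 2 and 0.21 on WT array 3), class I genes (0.03 and 0.02) and interferon gamma pathway genes (0.05 and 0.17) had it too. Unlike the members, the dendritic list was highest on Selp-/- array 3 (0.11), where the members lay below their mean (-0.15), and it varied less. Among the dendritic markers under the filter, Xcr1 (9.46) and Clec9a (9.11) had their highest level on Selp-/- array 2, against 8.20 and 8.13 on WT array 3. Cd209a, also under the filter, was highest on WT array 2 (8.99). Of all 12 dendritic markers, 3 were highest on Selp-/- array 2, 3 on Selp-/- array 3 and 4 on WT array 3. The part of these cells in the class II levels was not tested.

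The genes most like the class II chains were sought by Pearson's r over the 6 arrays with the mean centred profile of H2-Aa, H2-Ab1, H2-Eb1 and Cd74. That profile was -0.52, 0.50 and -0.10 on Selp-/- arrays and -0.51, -0.07 and 0.71 on WT arrays. Of 12449 genes compared, 137 (1.10%) had r of 0.9 or more, and the 10 highest outside the members were Gm11545 (0.992), Ppp1r12c (0.991), Dennd3 (0.982), Pak6 (0.980), Erfe (0.980), Barhl2 (0.978), Htr2a (0.976), Dcxr (0.976), Sbno2 (0.976) and Galnt6 (0.974). Their levels ranged over only 0.32 to 0.84 on the log2 scale, against 1.86 for H2-Aa, and with 6 arrays sharing amplification and normalization the likeness is a description. Among the members left out of the profile, Ciita had r of 0.889 and H2-DMa 0.074.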

How the data were processed

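The deposited values are probe set intensities on a linear scale for 6 arrays, made by the authors with MAS5 per the submitters' processing notes; genome build and scaling are not given in the sources used here. Array medians lay between 638 and 713 in Selp-/- arrays and between 563 and 751 in WT arrays, and the number of arrays limits the precision. Intensities were corrected with normexp (offset 50), taken to log2 and quantile normalized (R 4.3.3, limma 3.58.1). Probe sets with a mean level over all 6 arrays under the 40th percentile (8.79) were left out, leaving 17289 of 28815. A probe set dim on some arrays could pass through the others, and counts of calls between array numbers carry this selection. Genotype was tested two-sided with lmFit and eBayes (trend), and array number by an F test and 3 contrasts with genotype in the model. A single symbol was given for 21780 probe sets, more than 1 for 1605 and no symbol for 5430. Genes were named from single-symbol probe sets, except the shared H2-DMb2 and H2-DMb1 probe set.

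Same-numbered arrays deviated together (r over probe sets of 0.428, 0.526 and 0.814 for numbers 1, 2 and 3). However, Selp-/- array 1 correlated more with WT array 2 (0.514), and Selp-/- array 2 had r of 0.370 with WT array 1. Deviations were taken from the mean of each genotype, from which the arrays numbered 3 stand apart. The values therefore cannot decide how numbers 1 and 2 pair. The array numbers of the titles were taken to pair the samples. The members and gene lists were chosen with earlier results of these data known. At most 4 tested genes of a list are named with contrast values, those of smallest p in the array number F test, or all in a list of 6 or fewer. Some genes under the filter are named as such, and others are not named. Of the named genes under the filter, the levels of Xcr1 and Clec9a were chosen after they were seen. Alternatives were the background correction, the normalization, the filter, the trend, the replicate block and leaving out arrays. Promoters were searched for each motif in RefSeq windows of GRCm38.p6.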

Additional observations from a re-analysis of the deposited data

How the results depend on the processing

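No genotype call on any of the 7 class II probe sets arose under any alternative. The replicate block changed no call (0 probe sets passed with it and 0 without). Leaving out both arrays numbered 3 gave 4 genotype calls over the whole array, none of them among the 7 class II probe sets. It turned the sign for H2-Aa (0.29), H2-Ab1 (0.25), H2-Eb1 (0.25), Cd74 (0.36) and Ciita (0.20). Median centring turned H2-Ab1 (0.023) and Cd74 (0.0052), and log2(value + 16) without normalization, read relative to its shift of 0.108 in all probe sets, turned H2-Ab1 (0.0036). Leaving out 1 array at a time moved the genotype difference between -0.48 and 0.33 for H2-Aa, -0.43 and 0.21 for H2-Ab1, -0.37 and 0.33 for H2-Eb1, -0.32 and 0.22 for Cd74, -0.19 and 0.20 for Ciita, and -0.54 and 0.051 for H2-DMa, and between -0.37 and -0.044 for the H2-DMb2 and H2-DMb1 probe set, whose sign did not turn. The cause was not tested. The 2217 array number calls became 5901 with log2(value + 16), where arrays keep their unequal brightness and 6 of the 7 class II probe sets passed, and ran between 1036 (without WT array 3) and 2153 with 1 array left out, with 1288 without WT array 2. Such a fit assumes that the lone array of a number varies like the others. The H2-DMa call of number 3 against number 2 also did not hold with no filter (adjusted p = 0.0707), with median centring (-0.67, adjusted p = 0.0584) or without normalization (-0.31, adjusted p = 0.209), while both H2-Ob calls held under every alternative run. Averaging probe sets of a gene gave no new value, as each member has 1, and Ciita was not tested with the filter at the 60th percentile.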

Other observations

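Among 8 tested genes of the interferon gamma pathway, the main inducer of Ciita outside professional presenting cells, 3 were higher in the arrays numbered 3 than in those numbered 1, while 3 were higher and 1 was lower than in number 2 (limma, adjusted p under 0.05). Over all tested probe sets 6.08% were higher against number 1, and 7.8% were higher and 9.48% lower against number 2. The receptor chains Ifngr2 and Ifngr1 rose by 1.26 (SE 0.16, adjusted p = 0.00446) and 0.54 (SE 0.12, adjusted p = 0.0279) against number 1, and Socs1, an inhibitor of the pathway, by 1.33 (SE 0.27, adjusted p = 0.0240). Gbp3, an interferon-induced GTPase, passed only against number 2, where it fell by 0.60 (adjusted p = 0.0398).

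The counts below stand beside 6.08% of all tested probe sets called higher and 7% lower in number 3 against number 1. Against number 2 the shares were 7.8% and 9.48%. Mast cell and basophil markers were higher in number 3 against number 1 for 7 of 7 tested genes, and against number 2 for 6 of 7. The markers Ms4a2, Cma1, Mcpt4 and Tpsab1 lay under the filter. Fcer1a (means of 8.31 and 8.43 in numbers 1 and 2) and Tpsb2 (8.70 and 8.53) passed the filter only through number 3. Neutrophil markers were higher for 4 and lower for 1 of 10 against number 1, and higher for 8 of 10 against number 2. Of 5 tested T and NK markers, 1 was higher against number 1 (Gzmb) and 2 against number 2 (Gzmb and Nkg7), while Cd3e and Cd8a passed neither contrast. The neutrophil marker Mmp8 and the T and NK markers Cd3g, Zap70, Klrb1c and Ncr1 lay under the filter.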
